A study of Mus musculus with 16 samples.

Results

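The livers of 8 Ercc1-deficient mice were compared by RNA sequencing, 4 from animals fed a high-protein, low-carbohydrate diet and 4 from animals fed a low-fat, high-carbohydrate diet. These are all the libraries whose titles name either diet, 8 of the 16 in the series, and every gene was considered. All of the mice were male F1 hybrids (C57BL6J/FVBN), carried the Ercc1 d/- genotype and were 11 weeks old. They had eaten the synthetic diet AIN93G until 8 weeks of age and received the altered diets ad libitum from then on. Protein made up 194% and carbohydrate 70% of the standard amount in the high-protein diet, and fat made up 70% and carbohydrate 112% in the low-fat diet, with calories compensated between diets. The contrast therefore joins a difference in protein with differences in carbohydrate and fat, and neither diet is the standard one. The genotype is shared by both groups, and no repair-proficient animals enter the comparison. The sources used here do not give the hour of tissue collection, nor the litter or cage of single animals, so p-values measure only the spread between these samples.

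The liver turns dietary carbohydrate into fatty acids when sugar and insulin are plentiful, and it breaks down amino acids, discards their nitrogen as urea and makes glucose from their carbon when protein is the main fuel. Enzymes of both tasks are regulated at the level of transcription by insulin, glucocorticoids, glucagon and the circadian clock, a feedback loop in which the activators Arntl and Clock drive their own repressors, the Per and Cry genes. Ercc1 encodes a subunit of the endonuclease of nucleotide excision repair, and animals with little of it age prematurely.

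Library totals ran from 37317405 to 46899907 counts with high protein and from 36871852 to 112789127 with low fat, with the highest total in low-fat replicate 2. Hepatocyte marker genes, 10 of 10 of them detected, summed to 93908 to 118200 CPM (counts scaled to library size with trimmed mean of M-values factors) with high protein and to 92330 to 109608 with low fat. High-protein replicate 1 stood apart from the other 7 libraries on the first principal component, which held 44.5% of the variance, and had the lowest summed level of kidney genes.

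Of 16790 genes tested, 16 differed between the diets at an adjusted p below 0.05 in edgeR's quasi-likelihood test. Acacb, listed with fatty acid synthesis, and the NADPH suppliers Pgd and Me1 fell with high protein, and the clock-related genes Noct and Per1 rose. In all, 10 genes rose (0.0596% of those tested) and 6 fell (0.0357%), and in all 16 the CPM of the 4 high-protein and the 4 low-fat libraries did not overlap. Over all genes, the groups did not overlap in 741 genes that were higher with high protein (4.41%) and 681 that were lower (4.06%), and the median log2 fold change was -0.02. At an unadjusted p below 0.05 there were 2836 genes, 1357 higher (8.08%) and 1479 lower (8.81%). DESeq2 called 367 genes higher (2.42% of those with an adjusted p) and 342 lower (2.26%), and limma-voom with sample weights called 14 higher (0.0834%) and 11 lower (0.0655%), with all 16 genes among the calls of both.

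The calls stood close to the threshold, with 12 of the 16 at an edgeR adjusted p of 0.0488 and 2 (Ralgps1 and Retreg1) at 0.04999. Without high-protein replicate 1, without high-protein replicate 4 or without low-fat replicate 1 no gene passed, with smallest adjusted p-values of 0.0633, 0.0633 and 0.0979 in edgeR and 2329, 2193 and 2557 genes at an unadjusted p below 0.05. Without low-fat replicate 2 or 3 only 1 gene passed, and without high-protein replicate 2, high-protein replicate 3 or low-fat replicate 4 the number was 12, 31 and 13. With relative log expression scaling 3 genes were called higher and 1 lower, and with upper-quartile scaling 1 and 1. No gene passed in edgeR when all 16 libraries of the series shared 1 estimate of spread (1620 at an unadjusted p below 0.05). Each of the 16 genes kept its direction under all 18 alternatives. With groups that do not overlap, leaving out 1 library cannot turn a direction, so this is no separate support.

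**Figure D1:**
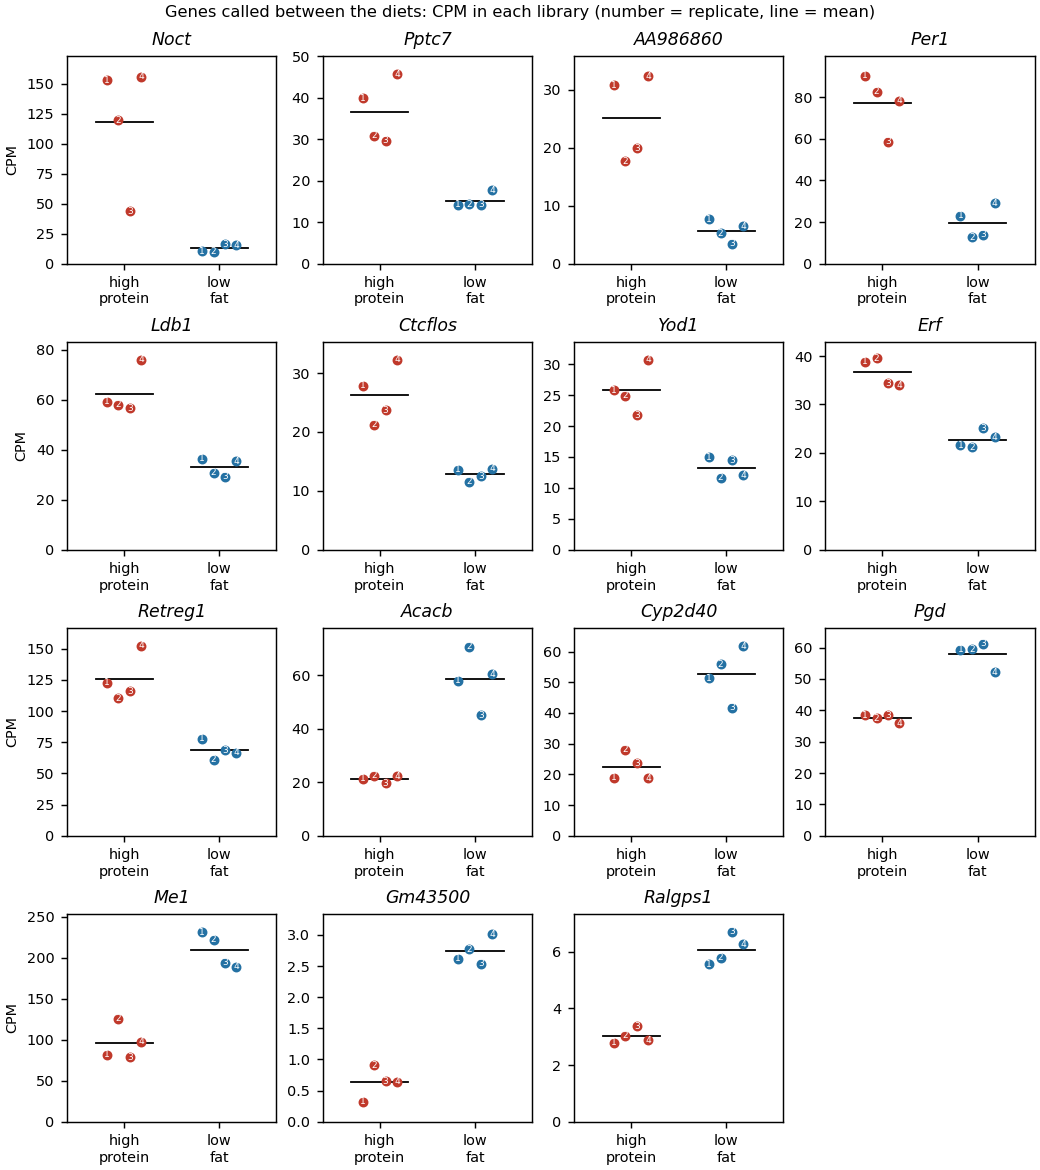
CPM (y axis, from 0) of 15 of the 16 called genes in each of the 8 libraries, with high protein in red, low fat in blue, the replicate number in each point and the mean as a line. In every panel the 4 libraries of one diet lie wholly above or below those of the other, for example Acacb at 19.6 to 22.4 CPM against 45.2 to 70.7 CPM.

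The list of fatty acid and fat synthesis held the gene with the smallest p-value. Acacb encodes the mitochondrial acetyl-CoA carboxylase, whose product malonyl-CoA restrains the entry of fatty acids into mitochondria (chromosome 5, 114146535 to 114250761, GRCm38.p6). It was measured at 21.3, 22.4, 19.6 and 22.2 CPM in high-protein replicates 1 to 4 and at 58.0, 70.7, 45.2 and 60.5 CPM in the low-fat ones. The high-protein animals differed little from each other and all lay far below the low-fat animals, so that the level was 2.74-fold lower with high protein (log2 fold change -1.46 ± 0.13 SE, edgeR adjusted p = 0.018, n = 4 per diet). Acacb remained called in 5 of the 8 fits that left out 1 library and in 13 of 18 alternatives.

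Pgd and Me1 supply the NADPH that fatty acid synthesis consumes, Pgd in the pentose phosphate pathway and Me1 by decarboxylating malate. Pgd stood at 38.5, 37.5, 38.5 and 35.8 CPM with high protein and at 59.4, 59.4, 61.2 and 52.2 CPM with low fat. Me1 stood at 81.5, 126, 78.7 and 97.5 CPM against 231, 222, 194 and 189 CPM. Pgd was thus 1.54-fold lower (log2 fold change -0.63 ± 0.09, edgeR adjusted p = 0.0488) and Me1 2.18-fold lower (-1.13 ± 0.16, adjusted p = 0.0488) with high protein, and each was called in 6 of the 18 alternatives.

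Of 21 genes of fatty acid and fat synthesis, 3 fell and 0 rose in edgeR's test, 17 had a log2 fold change below 0, and the groups did not overlap in 10, all of them lower with high protein. Their median log2 fold change was -0.74, beside -0.02 over all genes tested, and it lay between -0.80 and -0.63 when single libraries were left out (-0.78 without high-protein replicate 1). At an unadjusted p below 0.05 the list held 14 lower and 2 higher genes. DESeq2 called 11 lower and 1 higher, and limma-voom 5 lower. Of all genes, 4.06% were separated and lower, 8.81% were lower at that p and DESeq2 called 2.26% lower.

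The genes of the list that were not called in edgeR include the central enzymes of the pathway, and those beyond Acaca and Agpat2 are named after their values were seen. Fasn, the fatty acid synthase, stood at 287, 286, 210 and 123 CPM with high protein and at 589, 573, 517 and 805 CPM with low fat (log2 fold change -1.46, edgeR adjusted p = 0.102). Scd1, which introduces the first double bond, stood at 1976, 1683, 443 and 823 CPM against 4892, 5780, 2080 and 2298 CPM (-1.61, adjusted p = 0.198). Both genes had their 4 high-protein libraries below every low-fat library, and both spread widely within a diet.

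Acaca, the cytosolic acetyl-CoA carboxylase, stood at 86.6, 71.6, 58.0 and 52.5 CPM against 123, 134, 127 and 129 CPM (-0.93, adjusted p = 0.0841), and Agpat2, an acyltransferase of triglyceride assembly, at 78.2 to 98.3 against 129 to 153 CPM (-0.68, adjusted p = 0.0813). Pnpla3, a lipid droplet protein, had 0.136 to 0.457 CPM with high protein and 1.01 to 2.18 CPM with low fat (-2.57, adjusted p = 0.0841). Elovl5, which lengthens polyunsaturated fatty acids and was kept in a separate list, had 147 to 187 against 217 to 482 CPM (-1.18, adjusted p = 0.105). Dgat2 (0.69, adjusted p = 0.188) and Lpin1 (1.35, adjusted p = 0.243), which act late in triglyceride assembly, had positive log2 fold changes with overlapping groups. Srebf1, which encodes the lipogenic factor SREBP1, overlapped widely at 73.3 to 231 CPM against 97.4 to 292 CPM.

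**Figure D2:**
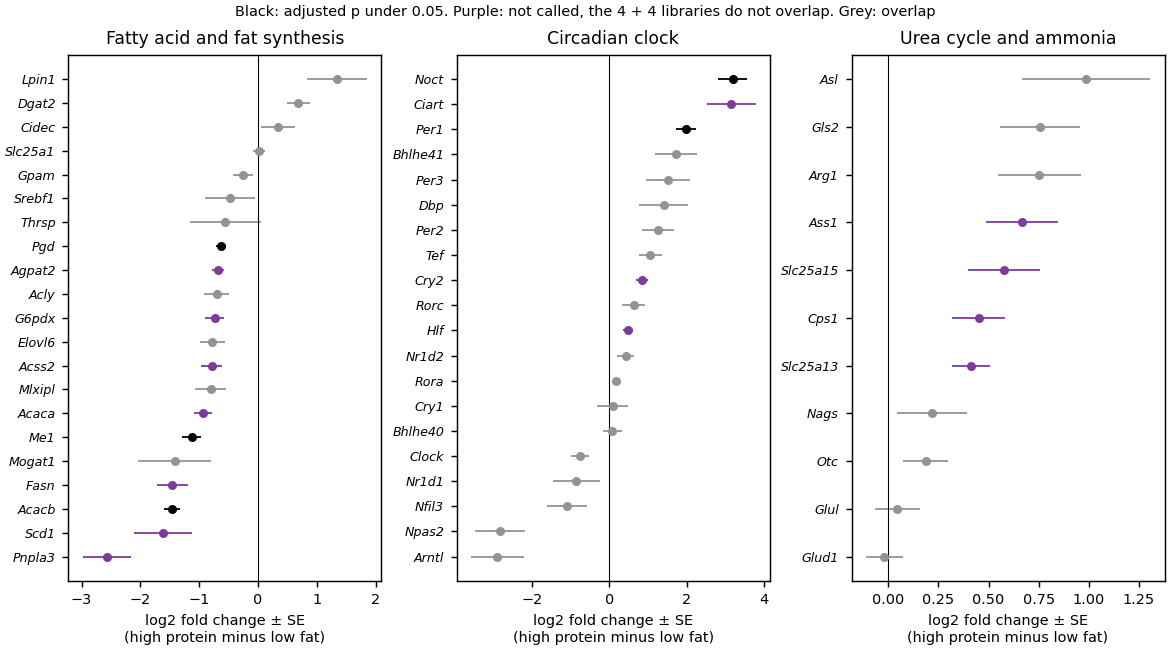
Log2 fold change (x axis, high protein minus low fat, ± SE) of every tested member of 3 lists, in black where edgeR called the gene, in purple where it was not called but the 4 and 4 libraries do not overlap, and in grey otherwise. Most members of fat synthesis lie left of 0 (17 of 21), clock genes lie on both sides (15 above and 5 below 0), and 10 of 11 urea cycle genes lie right of 0.

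Genes of sugar use lay on both sides of 0. Of 19 genes of glycolysis and sugar sensing, 0 were called in edgeR or limma-voom, 2 had an unadjusted p below 0.05 in the higher and 7 in the lower direction, DESeq2 called 1 higher and 4 lower, and the median log2 fold change was -0.02. That median had no stable sign, at -0.24 without high-protein replicate 4 and 0.05 without high-protein replicate 2 or low-fat replicate 4. Over all genes, 8.08% were higher and 8.81% lower at an unadjusted p below 0.05. Pklr, the liver pyruvate kinase and a target of the sugar-sensing factor encoded by Mlxipl, stood at 105, 144, 87.6 and 76.9 CPM with high protein and 205, 197, 178 and 232 CPM with low fat (-0.97, edgeR adjusted p = 0.105). Gys2, the liver glycogen synthase, lay on the other side, at 321, 259, 217 and 437 CPM against 144, 124, 125 and 183 CPM (1.10, adjusted p = 0.111).

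Noct and Per1 were the called genes of the circadian list. Noct encodes nocturnin, a rhythmic phosphatase that removes a phosphate from NADP(H) (chromosome 3, 51224447 to 51251644). Its CPM were 153, 120, 43.6 and 156 with high protein and 10.3, 10.1, 16.0 and 15.3 with low fat. High-protein replicate 3 was the lowest of its group and still above every low-fat library, and the difference was 9.14-fold (log2 fold change 3.19 ± 0.38, edgeR adjusted p = 0.0488).

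Per1 encodes a repressor of the clock loop that also answers directly to glucocorticoids and to cyclic AMP (chromosome 11, 69095217 to 69109960). It stood at 90.3, 82.7, 58.5 and 78.3 CPM with high protein and at 23.0, 12.8, 14.0 and 28.9 CPM with low fat, a 3.94-fold difference (1.98 ± 0.27, edgeR adjusted p = 0.0488). The groups were separated by a wide gap. Noct and Per1 were each called in 8 of the 18 alternatives, 2 of them among the 8 fits without 1 library.

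Of 20 clock genes, 2 rose and 0 fell in edgeR's test, the groups did not overlap in 5 (all higher with high protein), and the median log2 fold change was 0.56. The unadjusted p was below 0.05 for 9 higher and 3 lower genes, and DESeq2 called 7 higher and 2 lower, while limma-voom called 3 higher. Over all genes, 4.41% were separated and higher, and 8.08% were higher and 8.81% lower at that p. DESeq2 called 2.42% of all genes higher and 2.26% lower. The members named next were chosen after their values were seen. Ciart, a further repressor, stood at 47.4, 25.9, 21.4 and 30.8 CPM against 1.71, 2.45, 0.916 and 9.22 CPM (3.15, edgeR adjusted p = 0.111). Cry2, a repressor that pairs with the Per proteins, stood at 78.2, 62.1, 58.4 and 80.2 CPM against 31.4, 37.0, 38.3 and 47.8 CPM (0.85, adjusted p = 0.102).

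The activators had values in the other direction. Arntl stood at 0.755, 1.55, 3.96 and 1.56 CPM with high protein and at 23.5, 13.2, 19.1 and 2.28 CPM with low fat (-2.90, edgeR adjusted p = 0.141). Its partner Npas2 stood at 0.367, 0.240, 0.462 and 0.134 CPM against 3.37, 1.64, 3.26 and 0.403 CPM (-2.83, adjusted p = 0.133). Low-fat replicate 4 was the exception in its group for both genes, at the level of the high-protein libraries. The same library also had the highest low-fat values of the repressor and output genes Per2 (35.1 CPM, the others 7.94 to 17.3), Per3 (43.6 CPM, the others 4.90 to 14.5) and Dbp (109 CPM, the others 9.00 to 45.6). Without it, Ciart had a log2 fold change of 4.17 and an edgeR adjusted p of 0.0207, and Arntl one of -3.25 and 0.0562. Not all repressors had positive values. Nr1d1, a further repressor, overlapped at 17.5 to 128 against 62.3 to 206 CPM (-0.86, edgeR adjusted p = 0.486).

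The sequence upstream of Per1 and Retreg1 is shown because these were the called genes whose windows held a clock or cyclic AMP motif. Windows of 250 bases before each annotated start were taken from RefSeq (GRCm38.p6), which gave 22 windows for 14 of the 16 called genes. Both strands were searched. Capitals mark CACGTG (E-box, the element of the Arntl and Clock pair) in Per1 (chr11:69098699-69098948, plus strand) and in start 4 of Retreg1 (chr15:25942429-25942678, plus strand), and TGACGTCA (the cyclic AMP response element) in start 1 of Retreg1 (chr15:25843048-25843297, plus strand).
Per1: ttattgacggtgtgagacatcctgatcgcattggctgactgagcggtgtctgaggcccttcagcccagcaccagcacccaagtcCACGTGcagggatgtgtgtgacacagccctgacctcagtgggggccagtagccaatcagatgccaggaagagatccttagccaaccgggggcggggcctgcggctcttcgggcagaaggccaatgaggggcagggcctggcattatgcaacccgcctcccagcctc
Retreg1, start 4: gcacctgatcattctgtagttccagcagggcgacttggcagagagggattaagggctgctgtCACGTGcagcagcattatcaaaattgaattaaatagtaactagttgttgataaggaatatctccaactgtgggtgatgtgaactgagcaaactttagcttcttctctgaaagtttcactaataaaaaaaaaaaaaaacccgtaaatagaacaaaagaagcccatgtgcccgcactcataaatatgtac
Retreg1, start 1: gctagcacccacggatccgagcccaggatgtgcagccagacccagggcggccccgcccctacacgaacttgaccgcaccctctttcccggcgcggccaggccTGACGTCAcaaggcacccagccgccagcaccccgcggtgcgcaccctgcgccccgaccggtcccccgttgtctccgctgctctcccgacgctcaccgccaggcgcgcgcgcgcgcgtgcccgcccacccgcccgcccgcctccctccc
The E-box began 166 bases before the start in Per1 and 188 before it in Retreg1, and the cyclic AMP response element began 148 bases before the start. The E-box was in 6.02% and the cyclic AMP response element in 1.55% of all 32851 such windows. No window of Noct held either, and TTATGTAA (D-box) was in none of the 22 windows and in 0.819% of all windows. The other motifs were counted by gene, as present in any window of the gene, beside the same count over all 27025 genes with a window. CCAAT, a common promoter element, was in 5 of 9 higher and 5 of 5 lower genes and in 37.5% of all genes. AGGTCA, a core element of PPAR-alpha and other nuclear receptors, was in 3 of 9 higher and 0 of 5 lower genes and in 15.8% of all genes, and TGATGNAA, an ATF4 element, was in Yod1 alone and in 3.91% of all genes. These counts describe letters in the windows and show no binding.

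Genes known to answer to glucocorticoids and fasting had the highest median of the 32 pathway lists, 0.83. Of 18 members, Per1 rose and 0 fell in edgeR's test, 15 lay above 0, and the groups did not overlap in 4, all higher with high protein. The unadjusted p was below 0.05 for 9 higher and 0 lower members, and DESeq2 called 5 higher. Of all genes, 4.41% were separated and higher, 8.08% were higher at that p and DESeq2 called 2.42% higher. High-protein replicate 4 had the highest mean deviation of the list, 1.17 log2 units above the 8-library mean against -0.04 to 0.29 in the other high-protein libraries and -0.70 to -0.13 with low fat. Without that library the median was 0.54. The separated members, Per1, Pck1, Tat and Klf15, also belong to other lists. These are the clock, gluconeogenesis, aromatic amino acid, and insulin and FoxO lists, so the counts of these lists are not separate findings.

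Pck1, which commits oxaloacetate to glucose synthesis, stood at 4123, 4481, 4198 and 6213 CPM with high protein and at 2788, 2064, 1801 and 2501 CPM with low fat (1.05, edgeR adjusted p = 0.102). Klf15, a transcription factor induced in fasting that promotes amino acid breakdown, stood at 291, 225, 304 and 340 CPM against 197, 162, 124 and 180 CPM (0.81, adjusted p = 0.111). Both had separated groups without passing the test. Fkbp5, a chaperone of the glucocorticoid receptor that is itself induced by it, overlapped at 70.1 to 176 against 28.1 to 74.1 CPM (1.24, adjusted p = 0.172, chosen after its values were seen).

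Genes of amino acid breakdown and urea synthesis were not called in edgeR or limma-voom, and most of their values were higher with high protein. Of 11 genes of the urea cycle and ammonia, 10 lay above 0, 7 had an unadjusted p below 0.05 (0 lower), the groups did not overlap in 4, DESeq2 called 7 higher, and the median log2 fold change was 0.45. Of all genes, 4.41% were separated and higher, 8.08% were higher at that p and DESeq2 called 2.42% higher. These shares also serve for the amino acid lists that follow. Cps1, which fixes ammonia, stood at 6436, 4717, 4916 and 6111 CPM against 4050, 3740, 3995 and 4438 CPM (0.45, edgeR adjusted p = 0.191). Ass1, which joins citrulline to aspartate, stood at 4359, 3518, 3924 and 5862 CPM against 3329, 2267, 2875 and 2666 CPM (0.66, adjusted p = 0.17). Slc25a13 and Slc25a15, the mitochondrial carriers of aspartate and of ornithine, were also separated, at 201 to 233 against 146 to 176 CPM and at 451 to 803 against 371 to 430 CPM. Cps1, Ass1 and Slc25a15 were chosen after their values were seen.

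Of 14 genes that degrade aromatic amino acids, 12 lay above 0 and 5 were separated, all higher with high protein (median 0.27, unadjusted p below 0.05 for 5 higher and 0 lower, 4 called higher by DESeq2). Tat, the tyrosine aminotransferase and a classical glucocorticoid target, stood at 2558, 1601, 1639 and 4593 CPM against 954, 586, 726 and 758 CPM (1.78, edgeR adjusted p = 0.105). Every high-protein library exceeded every low-fat library.

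Of 23 genes for serine, glycine, threonine, proline, lysine and histidine, 17 lay above 0 and 5 were separated in the same direction (median 0.22, unadjusted p below 0.05 for 9 higher and 0 lower, 5 called higher by DESeq2). Sds, which deaminates serine to pyruvate, stood at 512, 261, 197 and 753 CPM against 175, 64.7, 92.4 and 170 CPM (1.78, edgeR adjusted p = 0.159). High-protein replicates 1 and 4 carried most of the Sds difference. The 19 genes of branched-chain amino acid breakdown, which the liver shares with muscle, had a median of 0.07, with 4 higher and 1 lower at an unadjusted p below 0.05 and none called by any of the 3 tools. Slc7a2, a carrier of arginine and other cationic amino acids, was among the closest to the threshold, at 1529, 1088, 795 and 1418 CPM against 572, 381, 451 and 512 CPM (1.33, edgeR adjusted p = 0.0813). Of 14 genes of gluconeogenesis and aminotransferases, 10 lay above 0 and 3 were separated, 0 were called in edgeR, 5 higher and 0 lower had an unadjusted p below 0.05 and DESeq2 called 4 higher. The shares of all genes in that direction were 4.41% separated, 8.08% at that p and 2.42% in DESeq2. The alanine aminotransferases Gpt2 (527 to 812 against 334 to 454 CPM, adjusted p = 0.119) and Gpt (464 to 699 against 330 to 377 CPM, adjusted p = 0.119, chosen after its values were seen) were among the separated genes.

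**Figure D3:**
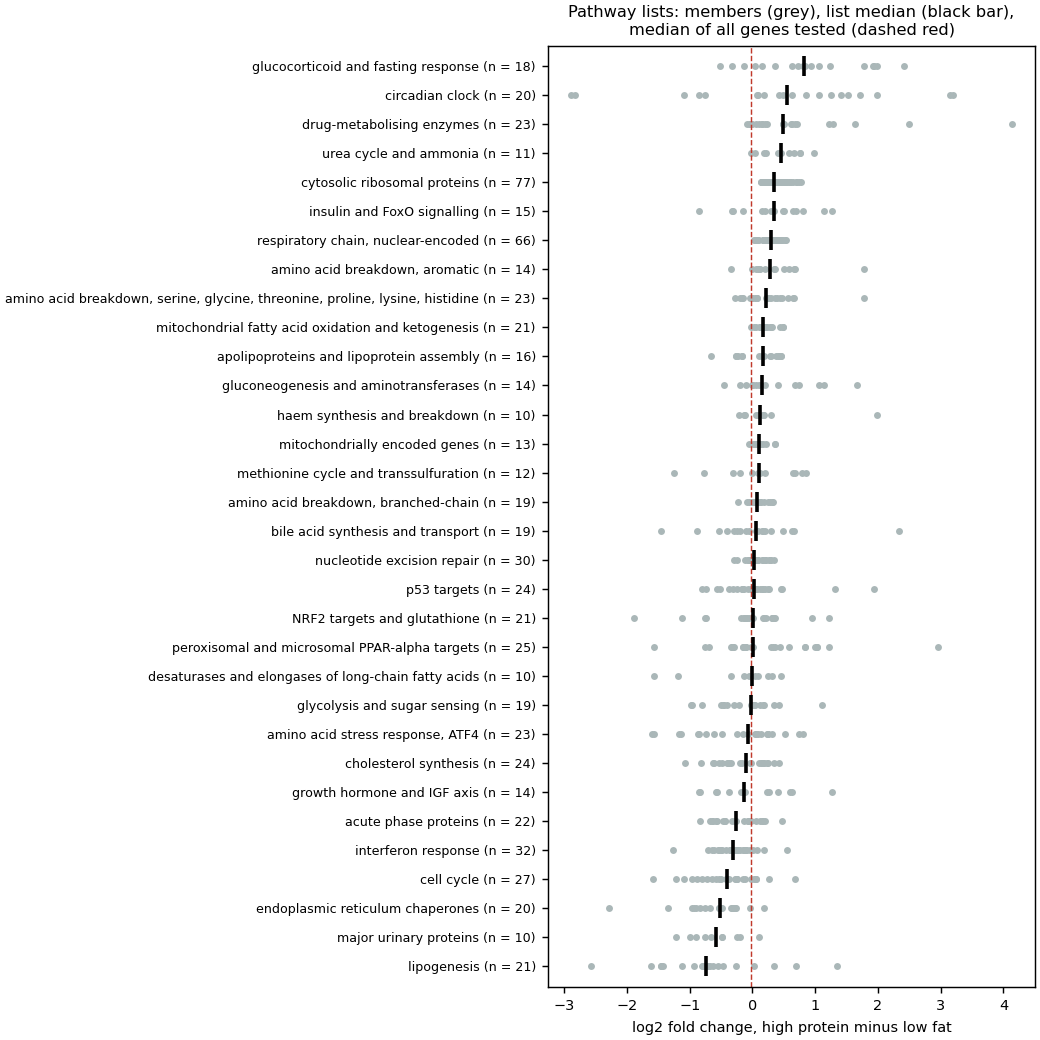
Log2 fold changes (x axis, high protein minus low fat) of the tested members of 32 pathway lists as grey points, with the median of each list as a black bar and the median of all tested genes as a dashed red line at -0.02. The medians run from -0.74 for fat synthesis to 0.83 for the glucocorticoid and fasting response.

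The lists of fat oxidation had smaller values. Of 21 genes of mitochondrial fatty acid oxidation and ketogenesis, 20 lay above 0 with a median of 0.17, 0 were called in edgeR, 4 higher and 0 lower had an unadjusted p below 0.05, and DESeq2 called 1 higher. Beside these counts, 8.08% of all genes were higher at that p, and DESeq2 called 2.42% higher. Cpt1a, the carnitine transferase that malonyl-CoA inhibits, stood at 535, 499, 529 and 657 CPM against 401, 427, 367 and 387 CPM (0.49, edgeR adjusted p = 0.133). The 25 peroxisomal and microsomal targets of PPAR-alpha had 13 members above and 12 below 0, a median of 0.0014 and no separated member. Their median had no stable sign, at 0.22 without high-protein replicate 2, 0.16 without high-protein replicate 1 and -0.10 without high-protein replicate 4. Cholesterol synthesis (24 genes) had a median of -0.10, which lay between -0.22 (without high-protein replicate 2) and -0.03 (without high-protein replicate 4) when single libraries were left out and was -0.17 without high-protein replicate 1. Mvd, a decarboxylase of the mevalonate pathway, stood at 8.49 to 15.7 against 19.4 to 28.1 CPM (-1.07, adjusted p = 0.102).

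Among 23 drug-metabolising enzymes and their regulators, 18 lay above 0 with a median of 0.49, which was 0.22 without high-protein replicate 1. None was called in edgeR or limma-voom, 9 higher and 0 lower had an unadjusted p below 0.05, and DESeq2 called 3 higher. Over all genes, 8.08% were higher at that p, and DESeq2 called 2.42% higher. Cyp2a5, a hydroxylase of coumarin and nicotine, stood at 2379, 1220, 718 and 3585 CPM against 258, 314, 212 and 622 CPM (2.49, edgeR adjusted p = 0.111), and Cyp2e1, an ethanol-oxidising enzyme, at 6227 to 7699 against 4020 to 4881 CPM (0.64, adjusted p = 0.105). Alas1, the rate-limiting enzyme of haem synthesis, stood at 1467, 1039, 475 and 1160 CPM against 168, 296, 177 and 407 CPM (1.98, adjusted p = 0.105). High-protein replicate 3 was the lowest of its group for Cyp2a5 and Alas1, as it was for Noct and Per1. Reads of Cyp2 genes can be shared with near-identical copies, so their values are uncertain.

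The other called genes described here come from several pathways. Pptc7, a mitochondrial protein phosphatase, was 2.42-fold higher with high protein (29.6 to 45.6 against 14.2 to 17.6 CPM). Yod1, a deubiquitinase, was 1.94-fold higher (21.7 to 30.7 against 11.7 to 14.9 CPM), and AA986860, an uncharacterised gene, 4.44-fold higher (17.7 to 32.4 against 3.41 to 7.63 CPM). Yod1 and AA986860 are neighbours on the plus strand of chromosome 1 (130717327 to 130724358 and 130731976 to 130744622), and reads that run from one into the other cannot be told apart in these counts.

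Ldb1, an adaptor of LIM-domain transcription factors, was 1.90-fold higher (56.7 to 76.0 against 29.2 to 36.3 CPM). Erf, an ETS repressor, was 1.61-fold higher (34.0 to 39.5 against 21.2 to 25.1 CPM). Retreg1, a receptor that delivers endoplasmic reticulum to autophagy, was 1.83-fold higher at 123, 110, 116 and 153 CPM against 77.8, 61.0, 68.5 and 66.6 CPM, with an edgeR adjusted p of 0.04999, and it was called in 3 of 18 alternatives. Ctcflos, a transcript antisense to Ctcfl, was 2.05-fold higher (21.2 to 32.2 against 11.6 to 13.8 CPM). The counting is not stated to use strand, so reads of Ctcflos and its partner cannot be told apart.

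Among the genes that fell, Cyp2d40, a cytochrome P450 with close paralogues, was 2.36-fold lower with high protein (18.8 to 28.0 against 41.7 to 61.7 CPM), and its share of reads among the paralogues is uncertain. Ralgps1, an exchange factor for Ral GTPases, was 2.01-fold lower (2.78 to 3.37 against 5.55 to 6.72 CPM, edgeR adjusted p = 0.04999). Gm43500, an antisense transcript, was 4.34-fold lower at 0.324 to 0.907 against 2.54 to 3.01 CPM, with the same limit of strand. Of the genes in this direction that did not pass the test, Pter, a phosphotriesterase-related enzyme, stood at 48.8 to 69.3 against 95.5 to 112.6 CPM (-0.83, edgeR adjusted p = 0.0813), and Osgin1, an oxidative stress response gene, at 48.1, 63.7, 126 and 73.5 CPM against 224, 434, 194 and 302 CPM (-1.89, adjusted p = 0.102).

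Lists of ribosomal proteins, the respiratory chain and endoplasmic reticulum chaperones had medians on both sides of 0, without calls in edgeR or limma-voom. All 77 cytosolic ribosomal protein genes had positive log2 fold changes (median 0.35), with 37 at an unadjusted p below 0.05, 3 separated and 2 called by DESeq2. The share of separated genes was thus no higher than the 4.41% of all genes tested. At an unadjusted p below 0.05, 8.08% of all genes were higher, and DESeq2 called 2.42% higher. All 66 nuclear-encoded genes of the respiratory chain were also above 0 (median 0.30), with 25 at an unadjusted p below 0.05, 13 separated and none called by DESeq2. The lowest mean deviations of the lists, in the order named, were in low-fat replicate 3 (-0.52 and -0.37), the highest in high-protein replicate 4 (0.41 and 0.43). Without low-fat replicate 3 the medians were 0.24 and 0.23. Ribosomal protein genes share reads with many pseudogenes and are uncertain for that reason.

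Of 20 genes for chaperones of the endoplasmic reticulum and their regulators, 19 lay below 0 with a median of -0.52. The unadjusted p was below 0.05 for 11 lower and 0 higher genes, beside 8.81% lower of all genes tested. None of the 20 was called by edgeR, DESeq2 or limma-voom. Hspa5, the main chaperone of the reticulum, stood at 734, 671, 1198 and 596 CPM with high protein and at 1447, 2211, 1004 and 1074 CPM with low fat (-0.84, edgeR adjusted p = 0.217). Low-fat replicate 2 had by far the highest value and high-protein replicate 3 exceeded 2 low-fat libraries. Without low-fat replicate 2 the median was -0.32.

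The lists of inflammation and cell division had medians below 0, and edgeR called 0 of their genes. Of 22 acute phase proteins, 16 lay below and 6 above 0 (median -0.27), with 4 separated, 7 lower and 0 higher at an unadjusted p below 0.05 and 4 called lower in DESeq2. Of all genes, 4.06% were separated and lower, 8.81% were lower at that p and DESeq2 called 2.26% lower. Low-fat replicate 4 had the highest mean deviation of this list, 0.38, and low-fat replicate 3 (-0.07) lay among the high-protein libraries (-0.18 to -0.03). Without low-fat replicate 4 the median was -0.04, with 11 members above and 11 below 0, without high-protein replicate 2 it was -0.14, without high-protein replicate 1 it was -0.17 and without low-fat replicate 3 it was -0.43. Fgg, a chain of fibrinogen, stood at 2001, 2086, 2265 and 1643 CPM against 3420, 2926, 3052 and 3061 CPM (-0.64, edgeR adjusted p = 0.105).

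Of 32 interferon response genes, 28 lay below 0 (median -0.30), and 4 were lower and 1 higher at an unadjusted p below 0.05, beside 8.81% lower and 8.08% higher of all genes tested. DESeq2 called 1 of them lower. Low-fat replicate 2 had a mean deviation of 0.61, while low-fat replicates 1 and 3 (-0.14 and -0.11) lay within the range of the high-protein libraries (-0.28 to -0.06). The same library was the highest of the 8 for T and NK cell markers (0.82) and Kupffer cell markers (0.44), and their part in the interferon values was not tested. Without low-fat replicate 2 the interferon median was -0.10, and without high-protein replicate 4 it was -0.18. Of 27 cell cycle genes, 22 lay below 0 (median -0.40), with 5 lower and 0 higher at an unadjusted p below 0.05 and 0 called in DESeq2. Cdk1, the mitotic kinase, stood at 1.13 to 1.55 against 1.48 to 3.19 CPM. Bub1, another mitotic kinase, stood at 0.107 to 0.259 against 0.310 to 0.658 CPM. Both levels were low.

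Genes of nucleotide excision repair and p53 targets lay close to the all-gene median. The 30 repair genes had a median of 0.03 and the 24 p53 targets one of 0.02, with 3 higher and 1 lower, and 1 higher and 2 lower, at an unadjusted p below 0.05, 0 called in edgeR, and 0 and 1 (lower) called in DESeq2. Without single libraries these medians lay between 0.01 and 0.06 for repair and between -0.06 and 0.07 for p53 targets. Over all genes, 8.08% were higher and 8.81% lower at an unadjusted p below 0.05, and DESeq2 called 2.42% higher and 2.26% lower. Ercc1 itself, mutated in every animal, stood at 1.73, 1.84, 1.63 and 1.26 CPM with high protein and at 1.71, 1.47, 1.43 and 2.04 CPM with low fat (log2 fold change -0.04 ± 0.22, edgeR adjusted p = 0.942). The reads that remain were not assigned to an allele here.

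Marker genes were summed to follow the make-up of the tissue pieces. In bulk tissue, fewer cells of a type and less RNA per cell cannot be told apart. Periportal hepatocyte genes summed to 16744 to 24536 CPM with high protein and to 10726 to 13762 CPM with low fat, and pericentral genes to 10649 to 12534 against 7723 to 8651 CPM. Both sums were separated in the same direction. Most periportal genes (Ass1, Asl, Cps1, Arg1, Gls2, Pck1, Sds, Hal and Cyp2f2) were also members of pathway lists above. The periportal sum therefore largely repeats their values and is no separate measure of the tissue. Cyp2e1 made up most of the pericentral sum, which without it was 4422 to 4835 against 3703 to 3965 CPM. Of 12 pericentral genes 8 lay above 0 and 3 were separated (median 0.11), and of 11 periportal genes 9 lay above 0 (median 0.66). The 3 were higher with high protein, and 4.41% of all genes were separated and higher. B and plasma cell genes (11 listed) summed to 59.8 to 73.0 CPM with high protein and to 86.9 to 115.7 CPM with low fat, and 9 of 10 tested members lay below 0 (0 called in edgeR, 8 lower at an unadjusted p below 0.05, 3 in DESeq2). Most of this sum was Cd74, the invariant chain of MHC class II, which other antigen-presenting cells also express. The other 10 genes summed to 5.31 to 8.11 against 11.8 to 36.0 CPM, with 7 of the 11 at a mean under 1 CPM. Without Cd74, low-fat replicate 4 held 36.0 CPM and the other low-fat libraries 11.8 to 12.9 CPM. The median log2 fold change of the tested members was -1.44, and it lay between -1.47 and -0.77 when single libraries were left out. Beside the counts, 8.81% of all genes were lower at an unadjusted p below 0.05, and DESeq2 called 2.26% lower. All 10 cholangiocyte genes (34.2 to 82.5 against 69.9 to 146.8 CPM summed) and all 11 tested T and NK cell genes (6.77 to 9.04 against 8.74 to 15.1 CPM summed) lay below 0, with medians of -0.86 and -0.64 and overlapping sums. Without low-fat replicate 2 the T and NK cell median was -0.24, with 7 of 11 below 0, and without high-protein replicate 1 it was -0.38, with 10 of 11 below 0.

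Kidney genes were detected in the liver libraries, least of all in high-protein replicate 1. The 23 kidney markers summed to 139, 1778, 586 and 1166 CPM in high-protein replicates 1 to 4 and to 1217, 1813, 3314 and 3090 CPM in the low-fat ones, and all 23 had negative log2 fold changes (median -1.46, 0 called in edgeR or DESeq2, 1 lower at an unadjusted p below 0.05). Over all genes, 8.81% were lower at that p, and DESeq2 called 2.26% lower. In high-protein replicate 1, Aqp1 (98.2 CPM) and Slc13a3 (38.8 CPM) made up nearly all of the sum, and of the other 21 markers 12 were at 0 and none exceeded 0.626 CPM. Without Aqp1 and Slc13a3 the sums were 2.05, 1582, 439 and 959 CPM against 1049, 1610, 3041 and 2807 CPM. Umod, the uromodulin gene of the renal tubule, had 0 CPM in high-protein replicate 1 and 48.2 to 335 CPM elsewhere, and Kap, an androgen-regulated kidney gene, had 0 CPM there and 181 to 1052 CPM elsewhere. With the log2 kidney sum as a covariate edgeR called no gene (smallest adjusted p 0.164, 1613 genes at an unadjusted p below 0.05), all 16 genes kept their direction, and the medians were -0.69 for fat synthesis, 0.72 for the clock and 0.43 for the urea cycle. Without high-protein replicate 1, the library lowest in kidney genes, the medians were -0.78, 0.54 and 0.43 in the same order, and 0.87 for the glucocorticoid and fasting response. With the covariate the cholangiocyte median turned from -0.86 to 0.07, with 6 of 10 genes above 0, and that of T and NK cell genes went from -0.64 to -0.36, with 2 of 11 above 0. The B and plasma cell median went from -1.44 to -0.87, with 9 of 10 genes below 0. The acute phase median was -0.17 and that of the serine, glycine, threonine, proline, lysine and histidine list 0.13 in the same fit. With the listed kidney and red cell genes left out, the length slope difference described next was -0.121 (exact permutation p = 0.0857). That fit kept 13800 of 13829 genes, so the slopes could hardly move. Whether kidney content bears on the slope was not tested.

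**Figure D4:**
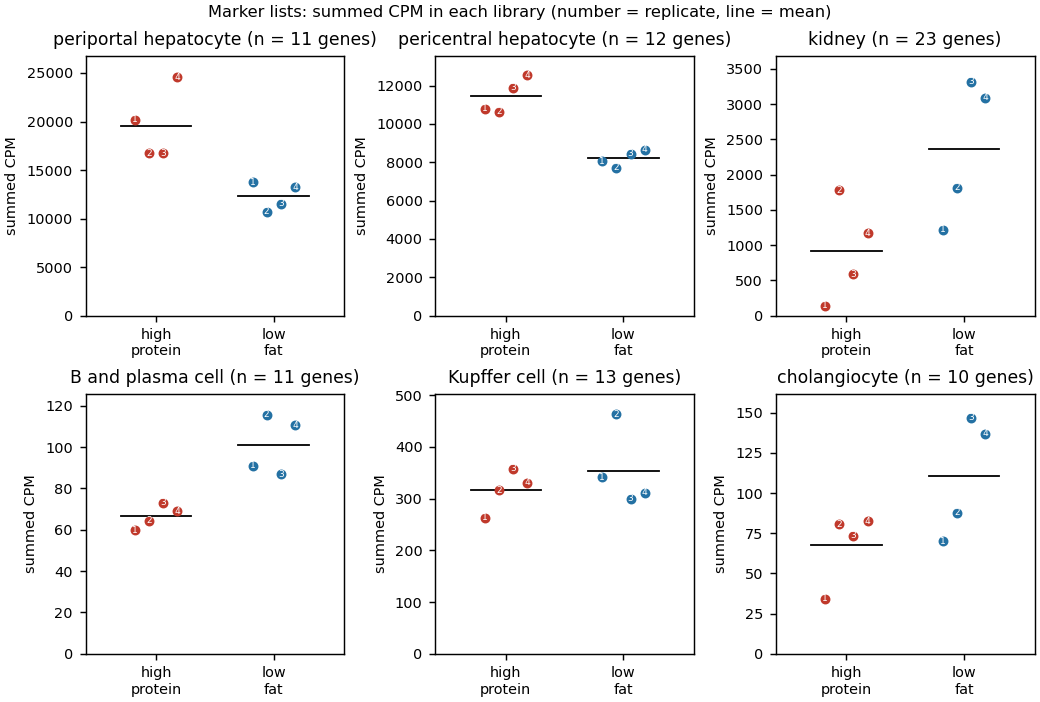
Summed CPM (y axis, from 0) of 6 marker lists in each library, with the replicate number in each point and the mean as a line. Periportal, pericentral and B cell sums are separated between the diets, kidney sums overlap and run from 139 CPM in high-protein replicate 1 to 3314 CPM in low-fat replicate 3.

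The title of the series names gene length, so expression was also related to the genomic length of genes. For each library the slope of the deviation of log2 CPM from the 8-library mean was taken over 13829 protein-coding genes, per unit of log10 length. The slopes were -0.075, 0.026, -0.083 and -0.109 with high protein and -0.029, 0.003, 0.231 and 0.036 with low fat. High-protein replicate 2 lay among the low-fat libraries, and low-fat replicate 3 lay far above all others. The means were -0.060 ± 0.059 and 0.060 ± 0.117 (SD, n = 4), with a difference of -0.120 and an exact two-sided permutation p of 0.0857 over 70 assignments, where 0.0286 is the smallest possible. Without low-fat replicate 3 the difference was -0.064 (exact permutation p = 0.171).

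The median log2 fold change by length was 0.05 for 3306 genes under 10 kb, -0.0049 for 4641 genes of 10 to 30 kb, -0.05 for 2655 of 30 to 60 kb, -0.07 for 1404 of 60 to 100 kb, -0.11 for 1157 of 100 to 200 kb and -0.21 for 666 genes over 200 kb. Genes with separated groups followed the same order, with 6.08% of the shortest genes higher and 2.72% lower with high protein, and 1.95% higher and 7.81% lower among the longest. Of the called genes, Ralgps1 was the only one in the longest class.

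The same genes were read in the other diets of the series for scale, with CPM scaled over all 16 libraries and without a test. Noct ranged from 24.1 to 47.8 CPM in the 4 animals on standard AIN93G and from 6.20 to 60.8 CPM on the low-protein diet, beside 43.4 to 157 CPM with high protein and 10.1 to 15.9 CPM with low fat. Acacb ranged from 33.9 to 87.2 CPM on the standard diet and from 17.9 to 101 CPM with low protein. The spread within these diets was much wider than within the high-protein group (19.5 to 22.3 CPM). Replicate 4 of the standard diet stood apart for most of the called genes, as the highest of the 16 libraries for 6 of the 10 that rose with high protein and the lowest for 4 of the 6 that fell. It had 340 CPM of Per1, 1886 of Retreg1, 140 of Pptc7, 145 of Erf, 124 of Ldb1 and 91.0 of Ctcflos, above every high-protein library. The other standard-diet animals had 18.8 to 52.5 CPM of Per1 and 58.9 to 99.9 CPM of Retreg1.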

How the data were processed

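Liver RNA was sequenced with a directional kit, per the labels' protocols. The authors deposited whole-number read counts per gene with summed exon length. Named without roles are STAR 2.7.0f, Trimmomatic 0.39, edgeR 3.32.1, Subread 1.6.4 and featureCounts, with build GRCm38.p6, per the submitters' processing notes. The sources used here do not state the strand setting or annotation release. Symbols and genomic lengths came from GENCODE M21, where 53861 of 54752 identifiers matched with version and 862 with another version.

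The 4 high-protein and 4 low-fat libraries, grouped by sample title, were fitted alone in edgeR 4.0.16 (R 4.3.3) with filterByExpr, TMM factors and the quasi-likelihood test (two-sided, 6 residual degrees of freedom), with Benjamini-Hochberg adjustment over 16790 genes at 0.05. A positive log2 fold change means higher with high protein. Length slopes used log2 CPM with a prior count of 2. DESeq2 1.42.0 and limma 3.58.1 were alternatives, with other scalings, filters, libraries and covariates. The scripts were tested on simulated data. Replicate counts differed by far more than sampling noise (chi-square per degree of freedom at least 44.8).

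The comparison, the 32 pathway and 15 marker lists and the rules were chosen with earlier results of these data known, so their direction is no independent evidence. Genes named are up to 15 per direction with separated groups and a mean of at least 1 CPM, called genes first and then those with the smallest unadjusted p, given as not called. To these were added the first members by p of each pathway list and Ercc1, and others are said to be chosen after their values were seen. Lists were described by counts and medians without a test. The values of some genes, 1 of the 16 called genes among them, are not reported here.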

Additional observations from a re-analysis of the deposited data

Results flagged for a closer look

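In 196 groups of 4 libraries examined for a single distant value, 7 were marked, and chance marks about 1 in 20. Low-fat replicate 4 had the highest value of its group for Pptc7 (17.6 CPM, the others 14.2 to 14.3) and for Cyp7a1, the rate-limiting enzyme of bile acid synthesis (138 CPM, the others 35.3 to 36.5), and the lowest sum of stellate cell and fibroblast markers (357 CPM, the others 392.4 to 395.9). Low-fat replicate 2 had the highest sum of T and NK cell markers (15.1 CPM, the others 8.74 to 9.58). High-protein replicate 4 had the highest value of Ldb1 (76.0 CPM, the others 56.7 to 59.3). High-protein replicate 1 had the lowest value of Ifit2, an interferon-induced gene (2.80 CPM, the others 3.87 to 4.07), and the highest of Bub1, a mitotic kinase (0.259 CPM, the others 0.107 to 0.133).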

How the results depend on the processing

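The number of called genes was 16 and depended on the processing. It was 4 with relative log expression scaling, 2 with upper-quartile scaling, 709 with DESeq2, 25 with limma-voom and quality weights, 155 with no low-count filter, 0 with all 16 libraries in the fit and 0 with the kidney level as a covariate. It was 15 with a filter of over 1 CPM in at least 4 libraries and 14 with libraries thinned to the lowest total. Without single libraries it ran from 0 to 31. The cause was not tested.

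With the title number as a replicate block 21 genes were called, 7 of them among the 16. The deviations of same-numbered libraries correlated at 0.32, -0.19, 0.05 and 0.27, and 4 of the 8 libraries correlated best with their own number. Since 2 of the 4 pairs were not above 0.1 and the labels name no shared source, the libraries were treated as sharing only a number. Each of the 16 genes kept its direction under all alternatives.

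The log2 fold change of Ercc1 changed sign, to 0.040 with limma-voom and quality weights, and it ran from -0.105 to 0.0737 without single libraries. The length slope difference stayed negative in all 15 alternatives, from -0.152 to -0.064 without single libraries. The exact permutation p ran from 0.0571 to 0.229 in those 8 fits and from 0.0857 to 0.4 in the other 7. Of 517 list medians under alternatives, 499 moved by less than the pooled SD of the libraries. Leaving out 1 of 4 libraries seldom moves a median that far, so this count is no measure of stability. Genes near 1 CPM have few counts and the widest errors, and 4 animals per diet limit the precision of every value.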
